A study of Platycodon grandiflorus with 6 samples.

Results

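The genes described here are the circadian clock genes and photoreceptors of *Platycodon grandiflorus*, the balloon flower. A unigene, an assembled transcript sequence, was a member when its SwissProt match was named LHY, CCA1, REVEILLE, GIGANTEA, EARLY FLOWERING 3, response regulator-like, adagio, phytochrome A, B, C or E, cryptochrome, phototropin or ultraviolet-B receptor. Of 152777 unigenes, 397 carried such a name. Of these, 37 were left out because their closest protein was from peanut (*Arachis*), and 1 was left out because CCA1 stood only inside the name YUCCA11. The remaining 359 members fell into 111 of the 94586 loci of the assembly, a locus being all contigs with the same cluster number or 1 unclustered unigene.

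RNA-seq libraries were made from calli and from leaves, with 3 libraries of each. The calli had been induced from stems with nodes on MS medium holding 1.0 mg/L NAA, an auxin, and 0.5 mg/L 6-BA, a cytokinin, and were kept for 50 days at 25 °C with 12 h of light a day at 1600 lx. The leaves came from the original plant, and the light they grew under is not given in the sources used here. The time of day at sampling is not given in the sources used here either, so tissue, growth light and time of day cannot be told apart in any difference below. Library totals lay between 18546158 and 19444638 expected counts in calli and between 17963458 and 18669613 in leaves. Members held 0.310 to 0.332% of the counts in calli and 0.455 to 0.504% in leaves. Leaf replicate 1 had 1.17% of its counts in peanut-matching unigenes, against 0.178 to 0.186% in calli and 0.250 and 0.347% in the other leaf libraries. The tissue labels were checked with 2 lists. Of 43 tested loci of light-harvesting, Rubisco small subunit and photosystem proteins, 1 was higher and 25 were lower in calli, and their summed level lay between 11606 and 12096 FPKM in calli and between 31807 and 40381 FPKM in leaves. Of 45 tested loci of cyclins, histone H4 and PCNA, 21 were higher and 3 were lower in calli. Cyclins made up most of this, with 16 higher and 0 lower of 27. Histone H4 had 2 higher and 2 lower of 11, and PCNA 3 and 1 of 7. The sums were 432 to 669 FPKM in calli and 374 to 455 FPKM in leaves, so the tissues overlapped. In bulk tissue, fewer cells of a type and less RNA per cell cannot be told apart, and the part of these lists in the results below was not tested.

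The plant clock, known best from *Arabidopsis*, is a ring of repressors and activators that peak one after another through the day. The Myb-like proteins LHY and CCA1 act around dawn, the pseudo-response regulators PRR9, PRR7, PRR5 and TOC1 follow from morning to evening, and an evening complex with ELF3 acts at night. Light reaches this ring through phytochromes, which sense red and far-red light, cryptochromes and the adagio proteins, which sense blue light, and UVR8, which senses UV-B. Phototropins sense blue light for phototropism, stomatal opening and the movement of chloroplasts in leaf cells.

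Levels are given in FPKM, read pairs scaled to the length of the transcript and to the mapped pairs of the library, summed over the contigs of a locus. Fold changes are log2 values of calli over leaves from edgeR's quasi-likelihood test on counts summed in the same way, with their standard error (SE), and a locus was called higher or lower at a Benjamini-Hochberg adjusted p of 0.05 or less. The low-count filter left 83 of the 111 member loci. Of these, 13 were higher in calli (15.7%), 34 were lower (41.0%) and 36 passed in neither direction. Among all 32898 loci tested, 22.0% were higher and 20.8% were lower in calli. The counts of each family below are to be read beside these shares. The median log2 fold change was -0.83 over the tested members and -0.05 over all tested loci. The 28 member loci that were not tested averaged at most 2.03 FPKM in either tissue, and 4 of them were at 0 in every library. The count of lower members dropped to 22 without calli replicate 2 and to 19 without calli replicate 3, where 10 and 9 members were higher.

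For single unigenes the counts were closer to those of all unigenes. Of 243 tested member unigenes, 26 were higher (10.7%) and 41 were lower (16.9%) in calli, where 14.2% and 12.3% of all 66307 tested unigenes were. Leaving out a calli library took these counts to 17 and 24 (replicate 1), 6 and 7 (replicate 2) or 2 and 2 (replicate 3). RSEM divides a read that matches several contigs among them, so the contigs of a locus share their reads, and loci are used below.

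Some clusters joined members with unrelated proteins. Members held at least 90% of the counts in 90 of the 111 loci and under 50% in 13. For such mixed clusters the level and test of the member contigs alone are given beside those of the cluster. With member contigs only, 12 loci were higher and 31 were lower of 81 tested.

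Among the clock families, 4 loci were higher (18.2%) and 11 were lower (50.0%) in calli of 22 tested. The median log2 fold change was -0.68. Of the 4 higher loci, 3 carried a PRR name. These were 2 loci named APRR2, which lacks the CCT domain of the clock proteins, and Unigene598, a zinc finger protein by its NCBI match. The summed level of the member contigs of all clock families was 607, 680 and 630 FPKM in calli and 1113, 1363 and 1041 FPKM in leaves. Every calli library thus lay below every leaf library. This sum holds the APRR2 locus CL984, whose member contigs averaged 110 FPKM in calli and 24.8 FPKM in leaves. The daytime pseudo-response regulators and adagio proteins were on the lower side, and the locus of LHY and CCA1 and the APRR2 locus were on the higher side.

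**Figure D1:**
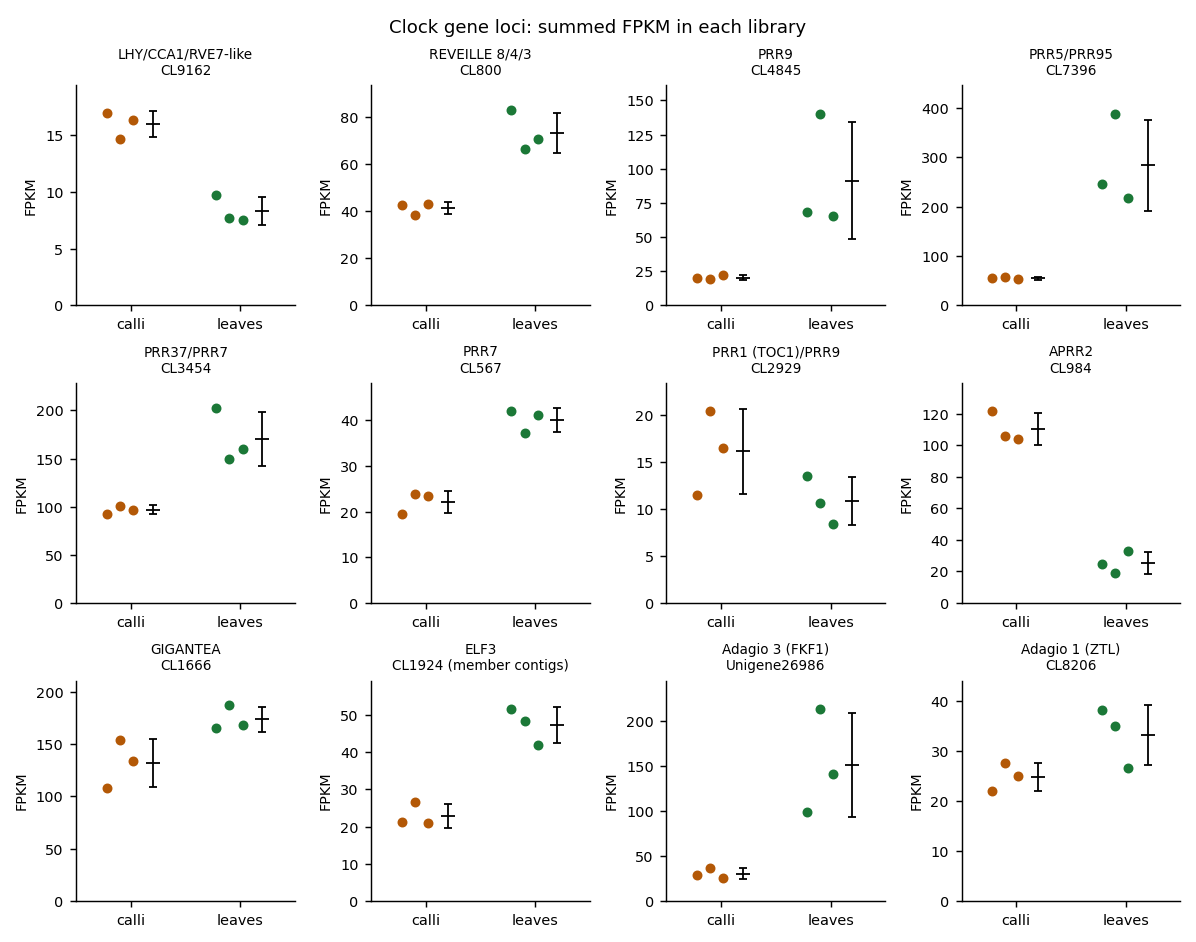
Summed FPKM of 12 loci of the clock families, APRR2 included, in each library. Each panel has its own linear axis from 0 and shows the 3 calli libraries (orange) on the left and the 3 leaf libraries (green) on the right, with the mean and SD in black. PRR9, the locus named PRR5 or PRR95 and adagio protein 3 lay in calli far below their lowest leaf library, the LHY and CCA1 locus and APRR2 lay above every leaf library, and the TOC1 locus and adagio protein 1 overlapped between the tissues.

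LHY is the dawn repressor of the ring. Locus CL9162 held 5 contigs that SwissProt named LHY, CCA1 or REVEILLE 7-like, and 4 of them had an NCBI match named LHY, so the names did not separate these genes. The 3 contigs named REVEILLE 7-like (RVE7-like) held most of the level, with 15.0, 12.8 and 15.4 FPKM in calli and 8.55, 7.38 and 6.14 FPKM in leaves. The whole locus had 16.9, 14.7 and 16.3 FPKM in calli, against 9.75, 7.69 and 7.54 FPKM in leaves. The tissues did not overlap, and the locus was higher in calli by 0.89 on the log2 scale (SE 0.20, edgeR adjusted p = 0.0158), a 1.85-fold difference. The adjusted p was 0.0512 without calli replicate 1 and 0.0603 without calli replicate 3. Its most abundant contig, CL9162.Contig3_All, one of those named REVEILLE 7-like, had 9.59, 9.07 and 10.8 FPKM in calli and 2.43, 1.92 and 1.43 FPKM in leaves, and rose on its own (log2 fold change 2.34, edgeR adjusted p = 0.00774).

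The REVEILLE proteins are relatives of LHY. REVEILLE 8, 4 and 6 act in *Arabidopsis* as activators of evening genes. Locus CL800, with 36 contigs named REVEILLE 8, 4 or 3, had 42.8, 38.4 and 43.0 FPKM in calli, against 82.8, 66.6 and 70.6 FPKM in leaves. It fell by 0.98 on the log2 scale (SE 0.18, edgeR adjusted p = 0.00719), with no overlap. The other tested loci of the family did not pass. They are named here after their values were seen. REVEILLE 6 (CL8970) averaged 21.4 ± 1.58 FPKM in calli and 24.4 ± 2.07 FPKM in leaves (SD, n = 3 each), and REVEILLE 1 (CL2541), which links the clock to auxin in *Arabidopsis*, averaged 7.93 ± 1.47 and 4.71 ± 1.38 FPKM. Their log2 fold changes were -0.20 (SE 0.12) and 0.65 (SE 0.29), with edgeR adjusted p of 0.213 and 0.116. CL9162 and the REVEILLE 8 locus thus differed between the tissues in opposite directions.

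The pseudo-response regulators formed 11 loci, of which 3 were higher and 6 were lower in calli of 10 tested. CL7396 was the most abundant of them in leaves. Of its 9 contigs, 4 were named APRR5, after a repressor of the dawn genes in the afternoon, 4 were named PRR95, a rice name, and 1 was named APRR9. The locus had 54.5, 57.8 and 52.6 FPKM in calli, against 246, 389 and 217 FPKM in leaves. Calli were close to each other and leaf replicate 2 was the highest. The locus fell by 2.43 on the log2 scale (SE 0.27, edgeR adjusted p = 0.00181), which is 5.37-fold. The APRR5-named contigs alone had 11.2, 12.2 and 12.1 FPKM in calli and 94.5, 233 and 143 FPKM in leaves. The PRR95-named contigs had 43.2, 45.3 and 40.6 FPKM in calli and 150.5, 152 and 71.7 FPKM in leaves. Neither sum overlapped between the tissues, and the sums by name were not tested. PRR9 (CL4845), the earliest of the series and a light-induced gene in *Arabidopsis*, had 19.9, 19.1 and 22.1 FPKM in calli, against 68.0, 140.4 and 65.6 FPKM in leaves. Again leaf replicate 2 stood highest, and the locus fell by 2.35 (SE 0.37, edgeR adjusted p = 0.00462).

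The 2 abundant PRR7-type loci, CL3454 and CL567, showed smaller differences with less spread. CL3454, whose contigs were named PRR37 or APRR7, had 92.3, 101 and 97.1 FPKM in calli and 202, 149.6 and 159.9 FPKM in leaves. It fell by 0.81 (SE 0.12, edgeR adjusted p = 0.00435). CL567, named APRR7, had 19.4, 23.8 and 23.4 FPKM in calli and 42.0, 37.1 and 41.2 FPKM in leaves. It fell by 0.99 (SE 0.12, edgeR adjusted p = 0.00203), and in neither locus did the tissues overlap. A single-contig locus named PRR73 (Unigene26677) and a locus named PRR37 (CL12400) were low, at 0.920 ± 0.433 and 0.847 ± 0.144 FPKM in calli and 3.81 ± 1.13 and 2.24 ± 0.944 FPKM in leaves (SD, n = 3 each). Both fell, by 2.13 and 1.79 on the log2 scale (edgeR adjusted p = 0.0216 and 0.0125). Without calli replicate 2 or 3 their adjusted p lay between 0.0606 and 0.0742, and without calli replicate 1 that of Unigene26677 was 0.0567.

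TOC1, also called PRR1 and given here after its values were seen, closes the series in the evening. All 5 contigs of locus CL2929 had an NCBI match named APRR1, but SwissProt named 2 of them PRR1 and 3 of them APRR9. The locus had 11.4, 20.4 and 16.5 FPKM in calli and 13.5, 10.7 and 8.39 FPKM in leaves. The libraries overlapped, and the log2 fold change of 0.62 (SE 0.24) had an edgeR adjusted p of 0.0857. The PRR1-named contigs alone had 7.09, 12.8 and 9.72 FPKM in calli and 5.30, 4.11 and 4.01 FPKM in leaves, with no overlap. Of these, CL2929.Contig4_All was tested and did not pass (log2 fold change 0.88, SE 0.26, edgeR adjusted p = 0.0538).

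Other PRR names went the other way. APRR2 (CL984, 20 member contigs) carries a Myb-like domain in place of the CCT domain of the clock proteins, and in tomato and pepper its homologue is known for the pigments of fruit plastids. It had 122, 106 and 104 FPKM in calli, against 24.5, 19.1 and 32.7 FPKM in leaves. It was the most abundant PRR-named locus in calli and was higher there by 2.07 (SE 0.24, edgeR adjusted p = 0.00193), which is 4.20-fold. A fragment named APRR2 (Unigene34133, 611 bases) had 4.23, 6.10 and 4.40 FPKM in calli and 0.370, 0 and 1.02 FPKM in leaves. Its log2 fold change was 3.34 (SE 0.99, edgeR adjusted p = 0.0357), and its adjusted p lay between 0.0841 and 0.107 without any one of the calli libraries and at 0.0851 without leaf replicate 1. Unigene598, named APRR1 by SwissProt but a zinc finger protein by its NCBI match, had 9.24, 4.27 and 5.76 FPKM in calli and was at 0 in all leaf libraries. With the leaf group set to 3 counts, this is at least 117-fold higher (edgeR adjusted p = 0.00361).

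GIGANTEA is an evening protein that stabilises adagio proteins. Its locus CL1666 had 108, 153 and 133 FPKM in calli, against 166, 188 and 168 FPKM in leaves. It was the most abundant clock locus in calli. Every leaf library lay above every calli library, but the log2 fold change of -0.28 (SE 0.15) did not pass (edgeR adjusted p = 0.173). Set against GIGANTEA in the same library, the level of the locus named PRR5 or PRR95 was 50.5, 37.7 and 39.4% of it in calli and 148, 208 and 129% in leaves. The level of CL9162 was 15.7, 9.58 and 12.2% of it in calli and 5.88, 4.10 and 4.49% in leaves. These ratios did not overlap between the tissues and are given as a description.

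ELF3 is the scaffold of the evening complex. Cluster CL1924 held 19 ELF3 contigs with 67.2% of its counts, beside contigs with other names. The ELF3 contigs alone had 21.1, 26.6 and 20.9 FPKM in calli, against 51.6, 48.5 and 42.0 FPKM in leaves. They fell by 0.91 (SE 0.18, edgeR adjusted p = 0.0102). The whole cluster had 64.9 ± 12.6 FPKM in calli and 60.0 ± 12.0 FPKM in leaves (SD, n = 3 each) and did not pass (log2 fold change -0.11, edgeR adjusted p = 0.716). The call for ELF3 therefore rests on which contigs are counted.

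The adagio proteins are blue-light receptors with an F-box, which mark clock and flowering proteins for breakdown. All 4 of their loci were lower in calli. Adagio protein 3, called FKF1 in *Arabidopsis*, where it acts in day-length sensing, had 28.6, 36.8 and 25.4 FPKM in calli at Unigene26986, against 99.0, 213 and 141 FPKM in leaves. It fell by 2.43 (SE 0.34, edgeR adjusted p = 0.00335), which is 5.39-fold. A second adagio protein 3 (Unigene21442) had 7.86, 6.94 and 7.23 FPKM in calli and 25.6, 24.6 and 20.3 FPKM in leaves. It had the smallest adjusted p of all member loci, with a fall of 1.77 (SE 0.16, edgeR adjusted p = 0.000961). Adagio protein 2 (Unigene44979), a relative of the other adagio proteins, was rare, with 0.257 ± 0.105 FPKM in calli and 2.68 ± 1.38 FPKM in leaves (SD, n = 3 each), and fell by 3.57 (SE 0.68, edgeR adjusted p = 0.00860).

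Adagio protein 1, called ZEITLUPE in *Arabidopsis*, degrades TOC1 and PRR5. Its locus CL8206 had 21.9, 27.5 and 24.9 FPKM in calli and 38.2, 34.9 and 26.6 FPKM in leaves, so calli replicate 2 lay above leaf replicate 3. The fall of 0.55 (SE 0.17) was at the threshold (edgeR adjusted p = 0.0454). The adjusted p was above 0.05 without any one library except leaf replicate 3, between 0.104 and 0.161, and was 0.0979 with DESeq2's size factors.

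Among the photoreceptor families, 8 loci were higher (13.3%) and 23 were lower (38.3%) in calli of 60 tested. The median log2 fold change was -0.96. Some of these calls were those of mixed clusters. With member contigs only, 7 were higher and 19 were lower of 58 tested, with a median of -0.73. These counts leave out an F-box protein that the member rule also took, described beside phytochrome A. Many of these loci were rare cryptochrome DASH unigenes. The summed level of the member contigs was 459, 456 and 458 FPKM in calli and 604, 466 and 552 FPKM in leaves, and leaf replicate 2 lay close to the calli libraries.

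**Figure D2:**
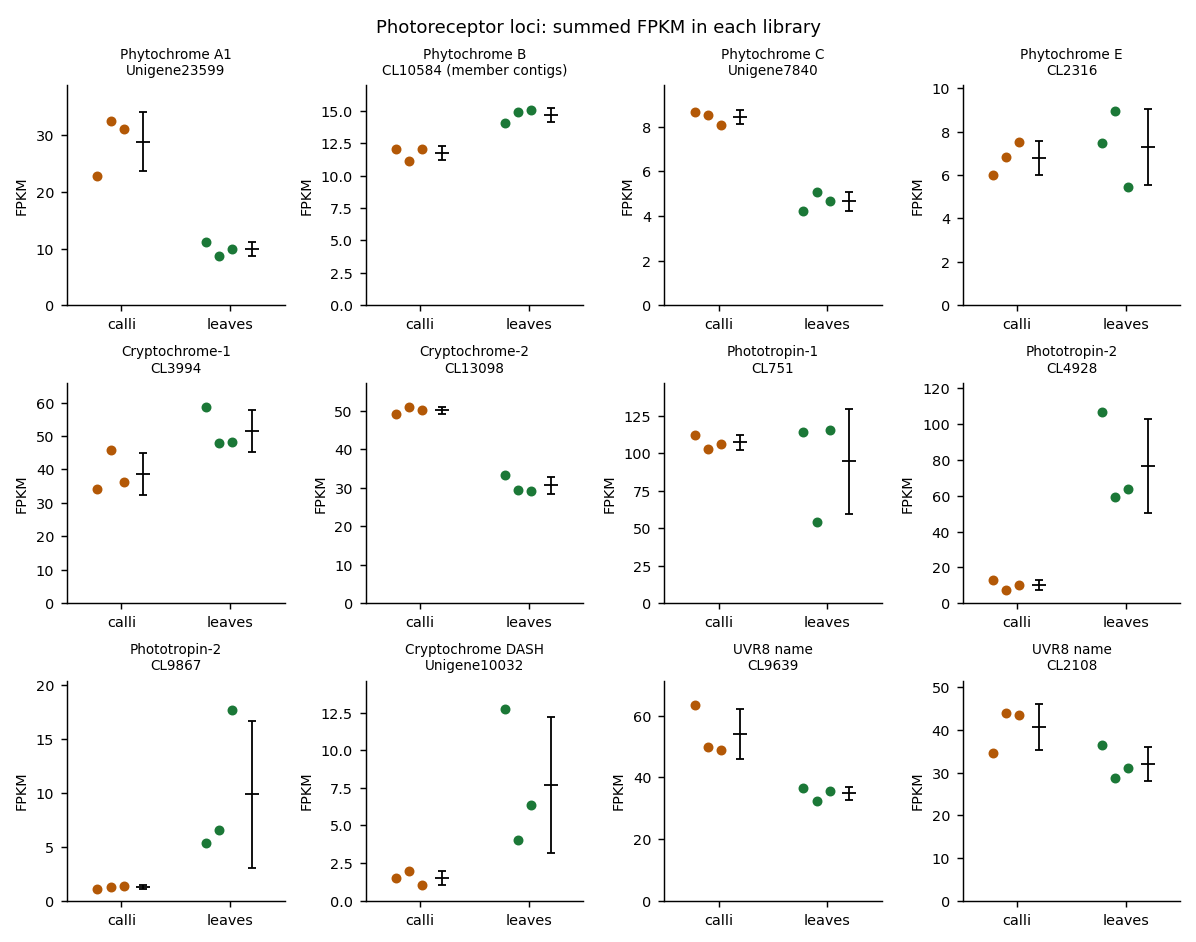
Summed FPKM of 12 photoreceptor loci in each library, with calli (orange) on the left, leaves (green) on the right, mean and SD in black, and a linear axis from 0 in each panel. Phytochrome A1, the phytochrome C contig Unigene7840 and cryptochrome-2 lay higher in every calli library. Both phototropin-2 loci drawn lay lower in every calli library, and phototropin-1 and phytochrome E overlapped. Another phytochrome C contig, Unigene67523, is not drawn and lay lower in every calli library.

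Phytochrome A is the phytochrome of seedlings in the dark and of far-red light, and it is degraded in light. Phytochrome A1 (Unigene23599, 3823 bases) had 22.9, 32.4 and 31.2 FPKM in calli, against 11.2, 8.67 and 9.87 FPKM in leaves. It was higher in calli by 1.44 (SE 0.15, edgeR adjusted p = 0.00156), which is 2.71-fold. The member rule also took a phytochrome A-associated F-box protein (Unigene1174), EID1 in *Arabidopsis*, which is no photoreceptor but dampens phytochrome A signalling. It had 34.8, 31.4 and 24.9 FPKM in calli and 15.4, 12.8 and 15.7 FPKM in leaves. It was higher in calli by 0.97 (SE 0.20, edgeR adjusted p = 0.0107), so both phytochrome A names lay on the same side.

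Phytochrome B is the main red-light receptor of green tissue. Its longest contigs lay in the mixed cluster CL10584, where 9 phytochrome B contigs held 17.2% of the counts. These had 12.0, 11.1 and 12.0 FPKM in calli, against 14.1, 14.9 and 15.1 FPKM in leaves. They fell by 0.49 (SE 0.13, edgeR adjusted p = 0.0247), and the whole cluster, at 103 ± 6.28 FPKM in calli and 171 ± 21.8 FPKM in leaves (SD, n = 3 each), fell by 0.70 (SE 0.16, edgeR adjusted p = 0.0146). Without calli replicate 2 or 3 the adjusted p of the cluster was 0.0723 or 0.0673. The other phytochrome B loci were short single contigs of at most 1381 bases. Unigene23804 had 3.27, 2.87 and 3.76 FPKM in calli and 13.8, 11.7 and 7.00 FPKM in leaves, and fell by 1.79 (SE 0.35, edgeR adjusted p = 0.00902). Unigene26619 and Unigene58052 averaged 2.29 ± 0.194 and 0.207 ± 0.358 FPKM in calli and 5.24 ± 1.38 and 3.74 ± 1.32 FPKM in leaves (SD, n = 3 each). They fell by 1.28 (SE 0.36) and 4.29 (SE 1.36), with edgeR adjusted p of 0.0318 and 0.0437. Both lost the call without leaf replicate 1 (adjusted p = 0.0647 and 0.0684) and without calli replicate 1 or 2 (0.0981 to 0.123), Unigene26619 also without calli replicate 3 (0.138), and Unigene58052 also without leaf replicate 2 or 3 (0.0861 and 0.0614). In all, 4 of 5 phytochrome B loci were lower in calli and 0 were higher by edgeR. Unadjusted p-values and DESeq2 gave no higher call in this family either.

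Phytochrome C, which works together with phytochrome B in *Arabidopsis*, was called at the single contig Unigene7840 (4811 bases). This contig had 8.67, 8.54 and 8.08 FPKM in calli and 4.24, 5.07 and 4.66 FPKM in leaves, and was higher in calli by 0.76 (SE 0.16, edgeR adjusted p = 0.0122). The mixed cluster CL147, where 1 phytochrome C contig held 0.0887% of the counts, fell by 1.03 (SE 0.22, edgeR adjusted p = 0.0121; 0.0627 and 0.0514 without calli replicate 2 or 3), which says nothing of phytochrome C. Both other tested phytochrome C loci, single contigs, did not pass, with edgeR adjusted p of 0.0758 and 0.163, and had fitted log2 fold changes of -0.83 and -0.57. The first of them, Unigene67523, had 4.01, 4.99 and 5.63 FPKM in calli and 10.2, 7.61 and 6.60 FPKM in leaves, where it lay above Unigene7840. Phytochrome E (CL2316) had 5.99, 6.83 and 7.53 FPKM in calli and 7.48, 8.93 and 5.45 FPKM in leaves. Its tissues overlapped, and its log2 fold change was -0.24 (SE 0.23, edgeR adjusted p = 0.425).

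Cryptochromes 1 and 2 are the blue-light receptors for growth and flowering. Cryptochrome-2 (CL13098) had 49.2, 50.9 and 50.1 FPKM in calli, against 33.2, 29.5 and 29.1 FPKM in leaves. It was higher in calli by 0.61 (SE 0.11, edgeR adjusted p = 0.00771). Cryptochrome-1 (CL3994) had 34.2, 45.9 and 36.2 FPKM in calli and 58.6, 47.9 and 48.1 FPKM in leaves. It fell by 0.53 (SE 0.14, edgeR adjusted p = 0.0235), with calli replicate 2 close to the lower leaf libraries. Its adjusted p was 0.0899, 0.134 and 0.0627 without calli replicate 1, calli replicate 3 and leaf replicate 1, and 0.0552 with DESeq2's size factors. Cryptochrome-2 made up 59.0, 52.6 and 58.0% of the summed level of both loci in calli and 36.1, 38.1 and 37.7% in leaves. A rare contig named cryptochrome-2 (Unigene8668) had 1.95 ± 0.165 FPKM in calli and 0.333 ± 0.137 FPKM in leaves (SD, n = 3 each), and was higher in calli by 2.43 (SE 0.47, edgeR adjusted p = 0.00913). In the mixed cluster CL11487 the cryptochrome contigs held 19.2% of the counts, with 7.85, 9.34 and 9.63 FPKM in calli and 6.38, 5.92 and 0.650 FPKM in leaves. They did not pass (log2 fold change 1.07, SE 0.73, edgeR adjusted p = 0.276), and neither did the whole cluster (0.61, SE 0.37, edgeR adjusted p = 0.225).

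Cryptochrome DASH proteins are relatives of DNA photolyases in chloroplasts and mitochondria, and the name covered 40 loci, more than any other. In 28 of these the member contigs averaged under 1 FPKM over the 6 libraries. Of 25 tested, 1 was higher and 8 were lower in calli, and the summed level of the member contigs was 30.0, 28.2 and 30.5 FPKM in calli and 73.8, 64.4 and 75.7 FPKM in leaves. In leaves, the largest part of that sum came from the mixed cluster CL12923, where 2 DASH contigs had 3.87, 0.990 and 0.860 FPKM in calli and 19.1, 19.2 and 16.9 FPKM in leaves. They fell by 3.23 (SE 0.72, edgeR adjusted p = 0.0147), and the whole cluster fell by 1.93 (SE 0.20, edgeR adjusted p = 0.00149). Unigene10032 had 1.53, 1.97 and 1.06 FPKM in calli and 12.7, 4.02 and 6.35 FPKM in leaves. It fell by 2.41 (SE 0.50, edgeR adjusted p = 0.0114; 0.0561 without calli replicate 3), with leaf replicate 1 the highest.

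In 2 mixed DASH clusters the call was that of the cluster and not of its DASH contigs. CL1310 fell by 0.89 (SE 0.17, edgeR adjusted p = 0.00846), but its 21 DASH contigs had 10.1 ± 1.06 FPKM in calli and 12.5 ± 4.24 FPKM in leaves (SD, n = 3 each) and an edgeR adjusted p of 0.134. CL1939 fell by 1.53 (SE 0.35, edgeR adjusted p = 0.0164), but its DASH contig, with 6.85% of the counts, had an edgeR adjusted p of 0.601. The call of the cluster was lost without any one of the calli libraries (adjusted p between 0.0609 and 0.0785). Of the single DASH contigs, Unigene6828, Unigene5406 and Unigene8405 fell by 1.83, 2.41 and 5.58, and Unigene7560 was higher in calli by 1.49. Their edgeR adjusted p lay between 0.00903 and 0.0463, and each of the 4 lost its call without at least 1 calli library, Unigene5406 and Unigene7560 without any one of them and also without leaf replicate 3 (adjusted p = 0.109 and 0.0558), Unigene5406 without leaf replicate 1 (0.0893) and Unigene7560 without leaf replicate 2 (0.0597). The contigs behind these calls averaged at most 2.48 FPKM in either tissue.

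Phototropin-1 and phototropin-2 share blue-light sensing, and in *Arabidopsis* phototropin-2 also drives the avoidance movement of chloroplasts in strong light. Phototropin-2 (CL4928, 9 contigs) had 13.0, 7.19 and 9.85 FPKM in calli, against 107, 59.5 and 63.6 FPKM in leaves. It fell by 3.03 (SE 0.35, edgeR adjusted p = 0.00198), which is 8.15-fold, and all 6 of its tested contigs had a fitted change below 0. A second phototropin-2 locus (CL9867) had 1.05, 1.31 and 1.37 FPKM in calli and 5.36, 6.54 and 17.7 FPKM in leaves. It fell by 3.08 (SE 0.55, edgeR adjusted p = 0.00700), with leaf replicate 3 the highest, where leaf replicate 1 was the highest at CL4928. Phototropin-1 (CL751, 15 contigs) had 113, 103 and 106 FPKM in calli and 114, 53.9 and 116 FPKM in leaves. Leaf replicate 2 stood below all others, and the log2 fold change was 0.20 (SE 0.30, edgeR adjusted p = 0.616). Phototropin-1 made up 89.6, 93.5 and 91.5% of the summed level of CL751 and CL4928 in calli and 51.7, 47.5 and 64.5% in leaves.

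Rare phototropin contigs also fell. Unigene16675, named phototropin-2, averaged 0.0300 ± 0.0300 FPKM in calli and 1.36 ± 0.768 FPKM in leaves, and Unigene26281, named phototropin-1, averaged 0.413 ± 0.208 and 1.85 ± 1.09 FPKM (SD, n = 3 each). They fell by 5.79 (SE 0.99) and 2.24 (SE 0.66), with edgeR adjusted p of 0.00566 and 0.0363. The call of Unigene26281 was lost without any one library except leaf replicate 2 (adjusted p between 0.0594 and 0.128). The cluster CL13166 fell by 1.42 (SE 0.13, edgeR adjusted p = 0.000995), but its 2 phototropin-2 contigs held 0.153% of the counts and were at 0 in 5 of the 6 libraries.

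UVR8 is built of the same repeats as the RCC1 family, so the SwissProt name reached proteins that other databases name otherwise. Of 13 tested loci with this name, 3 were higher (23.1%) and 4 were lower (30.8%) in calli, where 22.0% and 20.8% of all tested loci were. With member contigs only, 2 were higher and 4 were lower. The most abundant, CL9639, had 63.4, 49.7 and 49.1 FPKM in calli, against 36.6, 32.4 and 35.6 FPKM in leaves. It was higher in calli by 0.53 (SE 0.17, edgeR adjusted p = 0.0485), and this call was lost without any one library (adjusted p between 0.0566 and 0.111). CL2108, given here after its values were seen because its NCBI match is also named UVR8-like, had 33.6, 43.7 and 43.0 FPKM in its 11 member contigs in calli and 30.1, 22.5 and 25.0 FPKM in leaves. These contigs did not pass (log2 fold change 0.39, SE 0.16, edgeR adjusted p = 0.0922), and neither did the whole cluster (log2 fold change 0.04, edgeR adjusted p = 0.838). Unigene71018, whose NCBI match is a partial UVR8, had 0.300, 2.18 and 1.23 FPKM in calli and 7.22, 12.3 and 5.41 FPKM in leaves. It fell by 2.87 (SE 0.74, edgeR adjusted p = 0.0235; 0.0944 without calli replicate 3 and 0.0601 without leaf replicate 2).

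The other called UVR8 names lay in mixed clusters, where members held between 2.60 and 38.4% of the counts. Counted alone, the members of CL209 and CL2285 fell by 1.38 (SE 0.29) and 0.79 (SE 0.24), with edgeR adjusted p of 0.0117 and 0.0378, and their clusters fell by 1.03 and 1.36 (edgeR adjusted p = 0.0138 and 0.00170; CL209 0.0609 and 0.0738 without calli replicate 2 or 3). The member of CL2582 was higher in calli by 1.75 (SE 0.45, edgeR adjusted p = 0.0226), and its cluster by 1.24 (edgeR adjusted p = 0.00308). The members of CL3107 did not pass (-0.80, SE 0.29, edgeR adjusted p = 0.0669) where the cluster fell by 1.22 (edgeR adjusted p = 0.00413). In CL1945 the members and the cluster went opposite ways. Its UVR8-named contigs, whose longest has an NCBI match to an inhibitor of Bruton tyrosine kinase, had 5.27, 1.80 and 1.92 FPKM in calli and 10.2, 9.40 and 13.6 FPKM in leaves. They fell by 1.99 (SE 0.52, edgeR adjusted p = 0.0245), and the whole cluster was higher in calli by 0.71 (SE 0.15, edgeR adjusted p = 0.0125).

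**Figure D3:**
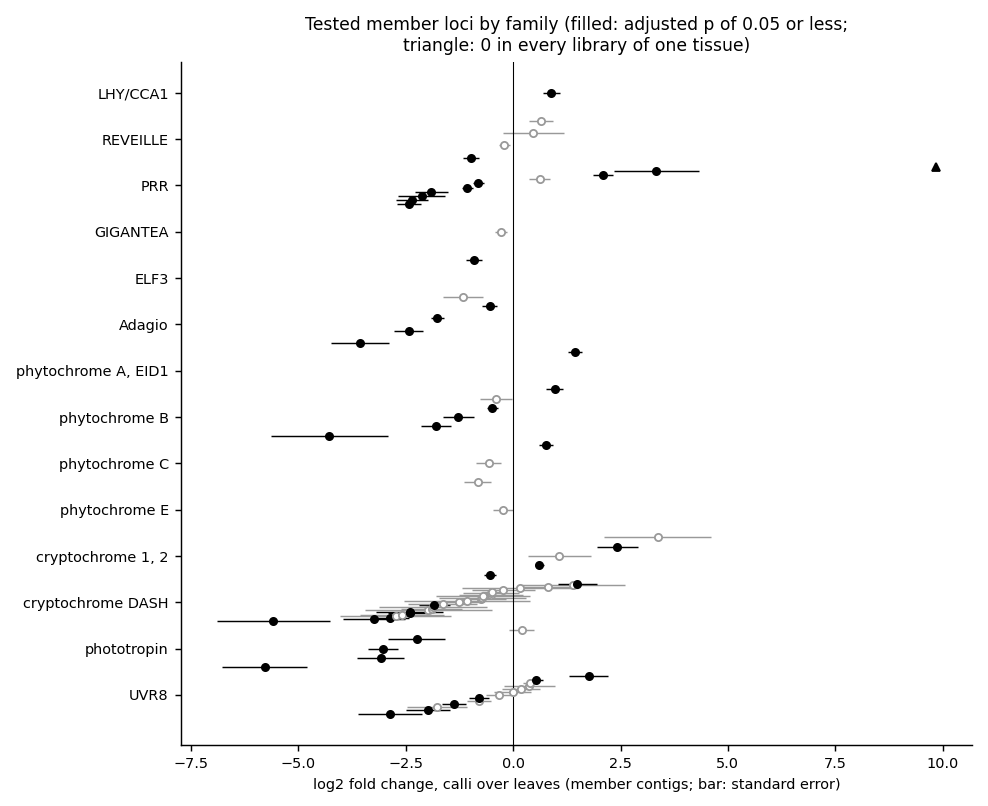
Log2 fold change of calli over leaves with its SE for the tested member loci by family, counted over member contigs only, with values above 0 higher in calli. Filled points passed an adjusted p of 0.05, and the triangle at the right, Unigene598, was at 0 in all leaf libraries, so that its fitted value depends on the prior count. All 4 adagio loci and 4 of 5 phytochrome B loci lay below 0 and passed, and both phytochrome A names lay above 0 and passed.

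The contigs of a locus did not always follow its sum. In 21 of 29 loci with more than 1 tested member contig, the fitted changes of the contigs had both signs, and in 5 loci contigs were called in both directions. These 5 were GIGANTEA, ELF3, the PRR7-type loci CL3454 and CL567 and the UVR8-named CL2108. The GIGANTEA contig with the highest mean over the 6 libraries, CL1666.Contig1_All, had 12.8, 27.6 and 22.5 FPKM in calli and 57.5, 66.2 and 66.5 FPKM in leaves, and fell by 1.63 (edgeR adjusted p = 0.0134). In calli CL1666.Contig8_All was more abundant, with 31.9, 56.6 and 44.7 FPKM, against 6.02, 43.6 and 36.5 FPKM in leaves, and did not pass (log2 fold change 0.58, edgeR adjusted p = 0.560). CL1666.Contig2_All, longer than both, had 3.69, 3.39 and 3.93 FPKM in calli and was at 0 in all leaf libraries, which is at least 416-fold higher when the leaf group is set to 3 counts (edgeR adjusted p = 0.00467). At the PRR37 locus, CL3454.Contig2_All had 25.4, 45.7 and 40.1 FPKM in calli and was at 0 in all leaf libraries, at least 2331-fold higher in calli by the same floor (edgeR adjusted p = 0.00416), while the sum of its locus fell. The ELF3 contig CL1924.Contig11_All went the other way, with 0.05, 0 and 0.06 FPKM in calli and 17.1, 16.6 and 27.0 FPKM in leaves (log2 fold change -9.07, edgeR adjusted p = 0.00529). In all, 10 called member unigenes were at 0 in all leaf libraries and 3 were at 0 in all calli libraries. PRR9 and phototropin-2 were more even, with every tested contig below 0.

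**Figure D4:**
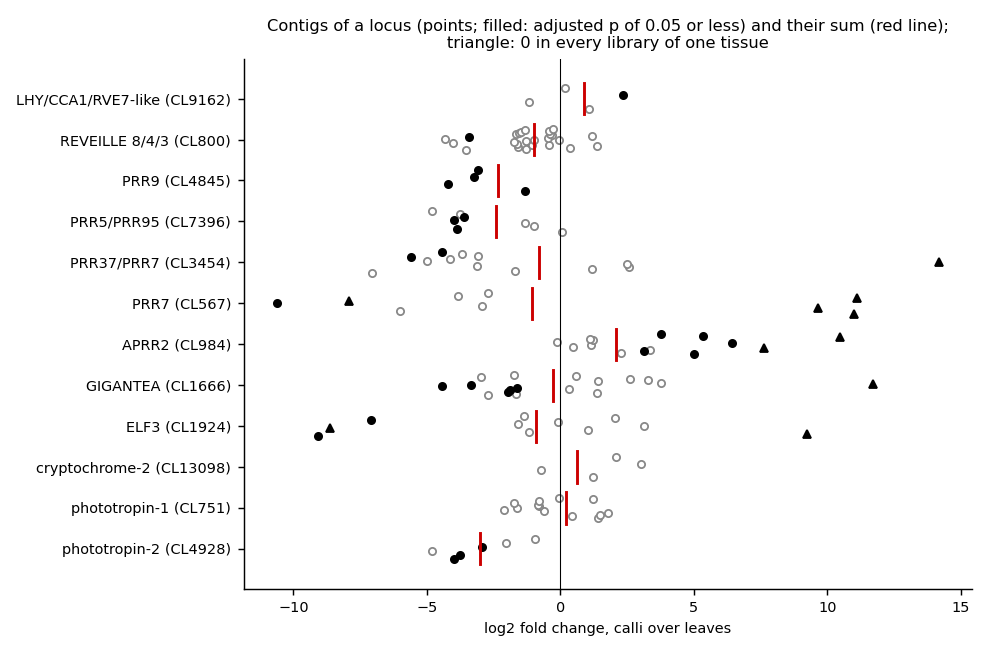
Log2 fold change of calli over leaves of each tested member contig (points) and of the sum of the member contigs (red line) at 12 loci. Filled points passed an adjusted p of 0.05, and triangles were at 0 in every library of one tissue, so that their fitted values depend on the prior count. Contigs of GIGANTEA, ELF3 and the PRR7-type loci lay far on both sides of 0 while their sums lay between -0.28 and -1.07, and those of PRR9 and phototropin-2 lay on one side.

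Member loci varied more between leaf libraries than between calli libraries. The median SD of log2(CPM + 1) over the 3 libraries was 0.17 in calli and 0.37 in leaves for the 83 tested member loci, and 0.22 and 0.34 for all 32898 tested loci. The SD was larger in leaves for 62 of the 83 member loci (74.7%) and for 67.9% of all tested loci, so a larger spread in leaves was common in the whole table.

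The known partners of the members were taken as a second list, which covered proteins of the evening complex, light signalling, flowering and phototropism. Of its 91 loci, 76 were tested, of which 24 were higher and 21 were lower in calli, with a median log2 fold change of -0.18. Over the whole table of 32898 tested loci, 22.0% were higher and 20.8% were lower, with a median of -0.05. Without calli replicate 3 these counts were 15 and 8, without calli replicate 2 they were 17 and 9, and without calli replicate 1 they were 20 and 12.

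Of 5 tested loci named as root phototropism proteins, partners of phototropin, 3 were higher and 1 was lower in calli. The higher loci were all named root phototropism protein 2. Root phototropism protein 2, which in *Arabidopsis* works with phototropin-1, had 79.1, 104 and 91.0 FPKM in calli at Unigene42819, against 4.85, 3.78 and 4.04 FPKM in leaves. It was higher in calli by 4.34 (SE 0.15, edgeR adjusted p = 0.000434). Unigene2519, with the same name, had 10.4, 15.7 and 13.7 FPKM in calli and 0, 0.680 and 0.490 FPKM in leaves, and was higher by 4.96 (SE 1.07, edgeR adjusted p = 0.0128). Of the loci named root phototropism protein 3, given here after their values were seen, CL10926 fell by 2.76 (SE 0.67, edgeR adjusted p = 0.0189), with 0.397 ± 0.271 FPKM in calli and 2.47 ± 0.124 FPKM in leaves (SD, n = 3 each), and CL11694 did not pass (log2 fold change 0.15, edgeR adjusted p = 0.330).

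Of the evening complex partners, 1 of 2 tested loci named LUX was lower in calli, in a mixed cluster (CL5113) where the LUX contigs held 15.0% of the counts. Of 4 loci named ELF4, after the partner of ELF3, or ELF4-like, 3 were lower in calli, with a family median of -1.25. The lower loci were CL12125 and CL5169, named only ELF4-like, and CL818, with contigs named ELF4 or ELF4-like. CL6026, given here after its values were seen, was the only locus named ELF4 alone. It had 13.6, 17.9 and 16.8 FPKM in calli and 5.66, 10.5 and 13.7 FPKM in leaves. Its tissues overlapped, and it did not pass (log2 fold change -0.06, edgeR adjusted p = 0.873). Of 4 LNK loci, 1 was higher and 1 was lower. LNK1 and LNK2 are coactivators of REVEILLE 8 in *Arabidopsis*. CL2215, with contigs named LNK1 or LNK4, had 10.8, 6.22 and 8.51 FPKM in calli, against 39.4, 72.7 and 41.5 FPKM in leaves. It fell by 2.87 (SE 0.39, edgeR adjusted p = 0.00318), and leaf replicate 2 was its highest library, as it was for CL7396 and PRR9. CL10879, with contigs named LNK1 or LNK2 and given here after its values were seen, had 46.4, 43.5 and 49.6 FPKM in calli, against 19.3, 13.2 and 11.9 FPKM in leaves, and was higher in calli by 1.51 (SE 0.18, edgeR adjusted p = 0.00198). CL30, named LNK1 or LNK2, did not pass (log2 fold change -0.41, edgeR adjusted p = 0.302). HY5, a transcription factor downstream of most photoreceptors, had 1 locus, which was lower in calli (log2 fold change -1.45), and 2 of 4 loci of COP1, the ligase that degrades HY5, were lower. One of these was the mixed cluster CL13119, where COP1 contigs held 24.5% of the counts.

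Other light signalling partners were found on both sides. Of 7 tested PIF loci, 3 were higher and 2 were lower in calli, with a median log2 fold change of 0.16. PIF7 (CL3438), a transcription factor that phytochrome B restrains, had 16.0, 12.9 and 21.7 FPKM in calli and 1.53, 1.05 and 1.36 FPKM in leaves. It was higher in calli by 3.51 (SE 0.33, edgeR adjusted p = 0.00112). The mixed cluster CL4302, given here after its values were seen, fell by 1.84 (SE 0.24, edgeR adjusted p = 0.00284). Contigs with a PIF name held 34.3% of its counts. Cyclic dof factors are flowering repressors that FKF1 marks for breakdown in *Arabidopsis*, and of 4 loci 1 was higher and 1 was lower in calli. Unigene35869, named cyclic dof factor 1, had 8.62, 9.28 and 8.42 FPKM in calli and 1.29, 0.910 and 0.810 FPKM in leaves. It was higher in calli by 3.03 (SE 0.30, edgeR adjusted p = 0.00121). The more abundant CL4393, named cyclic dof factor 1 or 3 and given here after its values were seen, had 16.8, 24.2 and 24.8 FPKM in calli and 40.8, 42.3 and 46.4 FPKM in leaves, and fell by 1.08 (SE 0.16, edgeR adjusted p = 0.00428). Of 7 B-box loci tested, 1 was higher and 3 were lower in calli. CL11985, named BBX24 or BBX25, had 28.8, 48.4 and 38.5 FPKM in calli and 0.570, 0.440 and 1.07 FPKM in leaves, and was higher by 5.68 (SE 0.42, edgeR adjusted p = 0.000632). Unigene10022, also named BBX24 although its NCBI match is a protein with leucine-rich repeats, was at 0 in all calli and had 36.6, 1.11 and 2.72 FPKM in leaves, most of it in replicate 1.

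Among CONSTANS-like proteins, which include regulators of flowering by day length, 7 loci were higher and 4 were lower in calli of 20 tested. The shares over all tested loci were 22.0% and 20.8%. Unigene18339, named CONSTANS-LIKE 4, had 4.04, 17.0 and 13.6 FPKM in calli and was at 0 in all leaf libraries, at least 243-fold higher in calli (edgeR adjusted p = 0.00445). The mixed cluster CL13660, where CONSTANS-LIKE 8 contigs held 10.4% of the counts, fell by 3.33 (SE 0.21, edgeR adjusted p = 0.000501). Unigene36942, named TIME FOR COFFEE after a clock regulator but without an NCBI match, had 133, 88.1 and 112 FPKM in calli and was at 0 in all leaf libraries, at least 1649-fold higher in calli (edgeR adjusted p = 0.000649).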

How the data were processed

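From total RNA of calli and leaves, mRNA was purified with oligo(dT) beads and sequenced in 3 libraries each. The study describes these as independent biological replicates, and the labels do not say which plants or cultures they came from. The authors assembled unigenes with Trinity, clustered them with TGICL, aligned reads with Bowtie2 2.2.5 and deposited RSEM 1.2.8 expected counts, which are not normalized, and FPKM values, which are scaled to length and library total. The deposited table also holds the authors' fold changes, p-values and averages, which were not used. No genome was used, so the loci have no coordinates here, and no sequence is printed.

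Expected counts were rounded and tested per unigene and per locus with edgeR 4.0.16 in R 4.3.3 (TMM, filterByExpr, quasi-likelihood F test, Benjamini-Hochberg adjustment over all features tested). The study called genes at an adjusted p of 0.001 and 2-fold; 0.05 was used here, and the stricter rule was an alternative, beside DESeq2 1.42.0, limma 3.58.1 on log2(FPKM + 1) and log2(FPKM + 0.01), other size factors, no filter, each library left out, no peanut-matching unigenes and member contigs only. SE is the fitted log2 change over the root of F. The fit was also run on simulated counts, whose spread was set below that of these data, so this run cannot show its error rates here. Fold bounds use 3 counts over the group at 0 and cover counting error only.

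Members and lists were chosen with earlier results of these data known. Named were the most abundant locus of each family and every called locus that averaged 1 FPKM or more in either tissue; partners needed 5 FPKM and were limited to the 10 largest changes. The marker lists were leaf photosynthesis, dividing cells and shoot meristem, of which the last matched 0 unigenes. No 2 libraries were copies of each other (chi-square per degree of freedom 12.9 to 161). Figures were drawn with matplotlib 3.10.9 in Python 3.11.15.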

Additional observations from a re-analysis of the deposited data

Results flagged for a closer look

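The 37 unigenes that carried a member name but matched peanut were left out of every comparison, yet they held counts above the floor of 3 in each library. They summed to 132, 42.7 and 60.5 expected counts in calli replicates 1, 2 and 3, and to 1216, 75.7 and 58.5 in leaf replicates 1, 2 and 3. Leaf replicate 1 thus held far more than any other library. The origin of these counts was not tested. Leaving all peanut-matching unigenes out of the fit left the counts of called member loci at 13 higher and 34 lower.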

How the results depend on the processing

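Under every alternative run but 1, 9 to 15 member loci were higher and 19 to 37 were lower in calli. The exception was the study's rule of an adjusted p of 0.001 and 2-fold, which left too few calls to compare, 0 higher and 2 lower by edgeR. These 2 were adagio protein 3 (Unigene21442) and the cluster CL13166, where phototropin-2 contigs held only 0.153% of the counts. At an unadjusted p of 0.05, 54 of the 83 passed. With a library left out, the counts were 9 to 12 higher and 19 to 37 lower. In alternatives added after the data were seen, loci with at least 90% of their counts in members gave 11 higher and 25 lower of 67, loci with at least 1 FPKM gave 13 and 33 of 74, and loci not named DASH gave 12 and 26 of 58. Member unigenes gave 41 higher and 71 lower with DESeq2, 18 and 18 with no filter on low counts, and 2 to 35 higher and 2 to 43 lower with a library left out. Under the study's rule they gave 0 and 0 by edgeR, where 106 passed an unadjusted p of 0.05. The smallest edgeR adjusted p over all tested unigenes was 0.00218. No unigene of the whole table could thus pass 0.001, and this count says nothing of the members. Partner loci gave 13 lower with no filter, 15 to 23 higher and 8 to 22 lower with a library left out, and 4 higher and 1 lower under the study's rule. The cause of these shifts was not tested. DESeq2's size factors moved the median log2 fold change of all loci by 0.11.

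Of 51 named loci, 43 kept their direction under every alternative, but only 16 kept both direction and side of the threshold throughout. The most abundant contig alone reversed 6, with log2 fold changes of 0.79 at CL10584, -0.71 at CL13098, 0.35 at CL1310, -3.15 at CL1945, 2.48 at CL3454 and -0.82 at CL751, all above an adjusted p of 0.05. The whole ELF3 cluster CL1924 changed sign near 0, with 0.00585 under DESeq2's size factors and in the DESeq2 test, 0.045 with no filter and 0.11 with limma at either pseudocount, and with -0.27 to 0.011 when a library was left out. CL1945 gave -1.99 with member contigs only. With a library left out, phytochrome E (CL2316) gave -0.37 to 0.0021 and phototropin-1 (CL751) gave -0.070 to 0.40, the sign changing without leaf replicate 2. Over 710 values of the named loci under alternatives, 577 kept their direction and side of the threshold, 111 lost the threshold, 6 reached it and 16 reversed direction. With 3 libraries a tissue, changes in rare loci are the least certain. No paired analysis was possible because the labels give the tissues no shared replicate numbers.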
